A study of Homo sapiens with 6 samples.

Results

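The 42 cell cycle and proliferation genes described here are a chosen list of 18 genes of DNA replication, 22 genes of mitosis and 2 inhibitors of cyclin-dependent kinases (CDKs). They were found by gene symbol among the 37902 genes of the expression table, and each of the 42 was among the 14684 genes that were tested, those with a mean of at least 10 normalised counts. The table comes from ARPE-19, an established human line of retinal pigment epithelium (RPE) origin, in 2 forms with 3 biological replicates each, which gives 6 libraries. WT is the parental line, and POLDIP2 KO is the line that was grown out after transduction with a lentivirus for SpCas9 and an sgRNA that targets the POLDIP2 coding sequence, under puromycin selection. Both lines were under regular maintenance, passaged before confluency, and RNA was taken at day 3 per the labels. No step of single-cell cloning is described for POLDIP2 KO, and no transduced control line is part of the comparison, so that transduction and selection cannot be told apart from the loss of POLDIP2. POLDIP2 is a protein first found as a partner of a DNA polymerase, and the comparison addresses whether its loss goes with a change in the expression of the genes that dividing cells use.

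A dividing cell loads the MCM helicase onto DNA in G1, copies its DNA in S phase and separates the copies in mitosis. Transcription of the genes for these steps comes in waves. E2F factors drive genes of the G1 to S transition, such as the MCM genes and cyclin E, and FOXM1 together with the MuvB and B-MYB complex drives genes of G2 and mitosis, while the kinase inhibitor p21 and the pocket proteins hold both waves back. ARPE-19 cells divide in culture, whereas the RPE of the adult eye does not. The level of these transcripts in a bulk library depends on how many of its cells are in cycle and on the RNA in each of them, and these cannot be told apart here.

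The genes of replication and of mitosis are known to be controlled in part through different short sequences before their start sites, and 7 windows are shown as examples. The promoters are from RefSeq on GRCh38.p14, and the windows are the 250 bases before the gene start, 5′ to 3′ on the strand of the gene. They were available for 15 of the 18 replication genes, 17 of the 22 mitosis genes and both inhibitors. Each window was searched on both strands for the CHR element (TTTGAA or TTCGAA), which the MuvB complex binds, for E2F sites (TTTGGCGC, TTTCGCGC, TTTCCCGC or TTCCCGCC, whose matches can overlap), and for the NF-Y site (CCAAT). MKI67, PLK1 and CCNB2 are shown as mitosis genes with matches of CHR and NF-Y, with MKI67 at chr10:128126424-128126673 on the minus strand, PLK1 at chr16:23678639-23678888 on the plus strand and CCNB2 at chr15:59104896-59105145 on the plus strand. MCM6 (chr2:135876444-135876693, minus strand) and E2F1 (chr20:33686386-33686635, minus strand) are shown as replication genes with matches of E2F. UHRF1 (chr19:4909251-4909500, plus strand) and CENPE (chr4:103198344-103198593, minus strand) are shown because their expression departed from that of the other genes. Capitals mark every match.
MKI67: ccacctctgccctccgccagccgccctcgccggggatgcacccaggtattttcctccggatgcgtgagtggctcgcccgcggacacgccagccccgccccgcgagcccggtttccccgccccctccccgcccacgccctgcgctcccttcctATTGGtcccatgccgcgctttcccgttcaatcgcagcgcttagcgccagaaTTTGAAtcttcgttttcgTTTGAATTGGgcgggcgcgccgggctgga
PLK1: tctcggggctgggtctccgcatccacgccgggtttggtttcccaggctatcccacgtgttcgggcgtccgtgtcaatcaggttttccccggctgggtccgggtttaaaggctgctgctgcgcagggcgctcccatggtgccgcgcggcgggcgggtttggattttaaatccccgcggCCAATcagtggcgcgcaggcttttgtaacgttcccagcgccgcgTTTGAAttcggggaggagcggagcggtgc
CCNB2: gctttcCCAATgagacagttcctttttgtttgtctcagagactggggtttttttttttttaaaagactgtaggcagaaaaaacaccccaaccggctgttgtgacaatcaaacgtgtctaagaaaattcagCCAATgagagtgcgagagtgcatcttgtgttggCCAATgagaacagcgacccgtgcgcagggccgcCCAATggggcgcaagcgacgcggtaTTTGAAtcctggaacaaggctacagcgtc
MCM6: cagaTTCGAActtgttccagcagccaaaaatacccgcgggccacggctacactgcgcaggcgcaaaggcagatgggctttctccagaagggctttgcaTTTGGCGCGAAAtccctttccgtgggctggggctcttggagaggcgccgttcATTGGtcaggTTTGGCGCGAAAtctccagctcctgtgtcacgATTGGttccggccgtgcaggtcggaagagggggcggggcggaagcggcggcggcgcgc
E2F1: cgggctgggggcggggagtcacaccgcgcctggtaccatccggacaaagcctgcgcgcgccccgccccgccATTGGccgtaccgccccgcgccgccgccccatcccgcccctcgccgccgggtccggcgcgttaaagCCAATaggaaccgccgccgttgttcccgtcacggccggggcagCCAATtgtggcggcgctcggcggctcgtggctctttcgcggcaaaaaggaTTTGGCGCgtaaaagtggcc
UHRF1: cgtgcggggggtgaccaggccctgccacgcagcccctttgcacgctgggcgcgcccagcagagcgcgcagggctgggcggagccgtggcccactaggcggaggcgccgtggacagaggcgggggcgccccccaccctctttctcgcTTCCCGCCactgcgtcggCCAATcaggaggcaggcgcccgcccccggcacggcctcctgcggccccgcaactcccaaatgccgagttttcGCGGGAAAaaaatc
CENPE: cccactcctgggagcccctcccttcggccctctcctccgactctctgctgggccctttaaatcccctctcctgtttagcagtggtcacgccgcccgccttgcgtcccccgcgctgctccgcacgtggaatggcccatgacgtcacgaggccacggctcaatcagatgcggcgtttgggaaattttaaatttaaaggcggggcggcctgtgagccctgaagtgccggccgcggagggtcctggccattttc

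A match of E2F was present in 9 of the 15 replication promoters (60.0%) and in 0 of the 17 mitosis promoters, against 4.37% of all 27305 promoters and 7.06% of the promoters of genes tested. The replication genes with a match were E2F1, CDT1, MCM3, MCM6, MCM7, GINS2, RRM1, TYMS and UHRF1. A match of CHR was present in 9 of the 17 mitosis promoters (52.9%) and in 2 of the 15 replication promoters (13.3%), against 14.6% of all promoters and 9.69% of those of genes tested. In MKI67, PLK1, CCNB2, KIF11 and BUB1B a CHR match ended 17 to 23 bases before the start, and 8 mitosis promoters (47.1%) held CHR together with NF-Y, against 5.24% of all promoters. The NF-Y site was common in both groups, with 11 replication promoters (73.3%) and 15 mitosis promoters (88.2%), against 33.0% of all promoters. CENPE had a match of none of the 3 in its window, and neither had CCNE1 and MCM2 of the replication genes, nor CDKN1A or CDKN2A. A match in these letters is a description of the window, and binding was not measured.

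The depth was 31532797 to 45795509 recovered reads per library, with POLDIP2 KO replicate 1 the lowest and POLDIP2 KO replicate 2 the highest. Between 17593 and 18348 genes had a read. POLDIP2, the targeted gene, was at 3919, 4827 and 4798 normalised counts in the WT libraries, in the order of the replicates, and at 1063, 1248 and 1143 in those of POLDIP2 KO, which follows the labels in each case. Of 12 RPE markers 8 passed the filter on low values, and RPE65 and TRPM1 were at 0 in all 6 libraries. The 8 were RDH10, MITF, OTX2, BEST1 and RDH5, and, at low values, PMEL (at most 103 normalised counts), RLBP1 (at most 68.2) and TYRP1 (at most 27.1). TYR (at most 2.98) and DCT (at most 3.97) were near 0 and did not pass. In a list of 7 genes, made up of keratins, cadherins and EPCAM, KRT8, KRT18 and CDH2 were abundant in each library. The epithelial genes CDH1 (at most 13.5 normalised counts) and EPCAM (at most 5.02) were near 0. KRT7 had a mean of 4701 in WT and 1794 in POLDIP2 KO with no overlap, and it did not pass the test (limma, Benjamini-Hochberg adjusted p = 0.160). Of 6 blood cell markers 3 were at 0 in every library, and the list summed to between 18.5 and 33.8 normalised counts. In fibroblast markers POLDIP2 KO replicate 1 stood apart, as they summed to 14306 normalised counts there over 8 genes against 2099 to 6802 in the other libraries, with COL1A2 at 614 against at most 9.45. The next highest sum, 6802, was in WT replicate 1, which has the same number. PDGFRB was highest in these libraries numbered 1, at 4623 in WT and 6572 in POLDIP2 KO. The part of the difference of POLDIP2 KO replicate 1 in the values of the cell cycle genes was not tested.

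The 42 genes were well expressed in both lines, with a range of 145 to 18471 recovered reads in a library. Per kilobase of exon (GENCODE release 44, all exons of a gene merged), the highest mean level over the 6 libraries was that of CDKN1A, at 4402 normalised counts per kilobase, and the lowest was that of CDKN2A, at 59.5. Among the replication genes the level per kilobase ran from 128 for CCNE1 to 2918 for TYMS, with a median of 560.5. In the mitosis group it ran from 320 for CENPE to 2398 for CCNB1, with a median of 865. TPX2 (2396) and TOP2A (2146) were close to CCNB1 on this scale.

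In the comparison of the lines, none of the 42 genes passed the test across all genes, in either direction. With limma on log2(normalised count + 1) and Benjamini-Hochberg adjustment over the 14684 genes, 0 of the 42 passed both a 1.5-fold change and an adjusted p value of 0.05, against 0.17% of all genes tested, so that 0 were higher in POLDIP2 KO, against 0.0817%, and 0 were lower, against 0.0885%. The adjusted p values of the 42 lay between 0.574 and 0.9998. At an unadjusted p value of 0.05, 1 of the 42 passed in limma (MCM4), against 6.48% of all genes. Tests on recovered reads also called 0 of the 42, against 0.116% of all genes by the edgeR quasi-likelihood test and 1.69% by DESeq2, and each gave 2 of the 42 (MCM4 and MCM5) an unadjusted p value under 0.05, against 6.52% and 7.08%. A fit with replicate numbers as blocks called 0, against 0.204%, and 2 passed unadjusted (MCM4 and MCM5), against 11.1%. The smallest adjusted p value of any of the 42 in any fit run was 0.177, for MCM4 in DESeq2.

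The estimates lay slightly below 0 for most of these genes. The log2 fold change of POLDIP2 KO over WT was under 0 for 38 of the 42, against 50.1% of all genes tested, and these 38 comprised each of the 22 mitosis genes, 15 of the 18 replication genes and 1 of the 2 inhibitors. The median log2 fold change was -0.16 for mitosis, -0.09 for replication and -0.01 for the inhibitors, against -0.00029 for all genes. These genes are co-expressed within a library, so that such a count is not a count of independent observations. For 35 of the 42 the difference between the mean normalised counts of the lines was smaller than the SD of the 3 WT libraries, against 67.7% of all genes. The 95% confidence interval lay within a fold change of 1.5 in either direction for 18 of the 42, against 47.5% of all genes, and these were 11 replication genes, 6 mitosis genes and 1 inhibitor, so that for the rest a change of 1.5-fold lies within the interval.

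**Figure D1:**
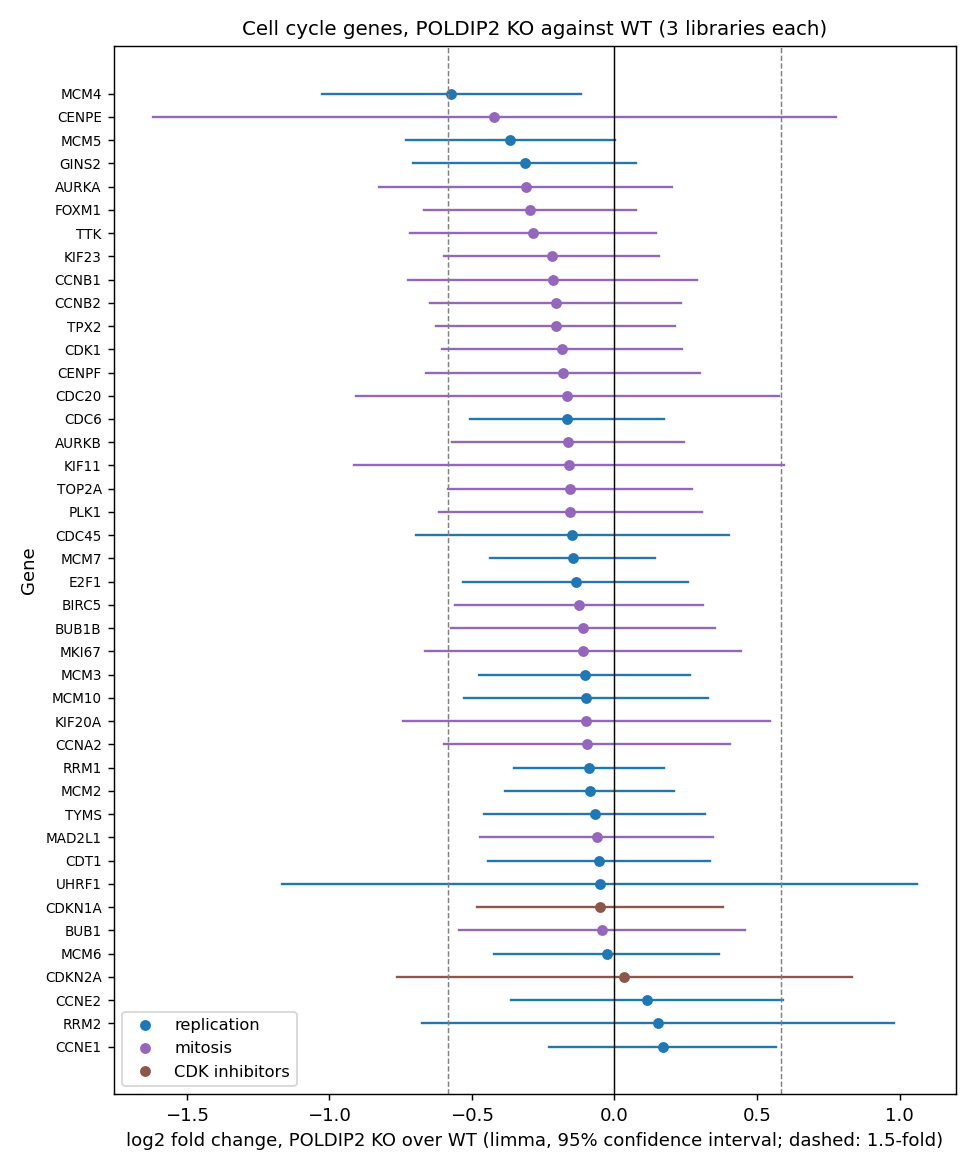
Log2 fold change of POLDIP2 KO over WT for the 42 genes, in order, with points for the limma estimate and lines for its 95% confidence interval (3 libraries per line; colours give the group, dashed lines mark a 1.5-fold change). Of the points 38 lie below 0, and the interval of MCM4 is the one that lies wholly below 0.

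For most of the 40 genes of replication and mitosis the SD of the WT replicates was larger than the difference between the line means. WT replicate 2 was the lowest of the WT libraries for 38 of the 40, against 31.4% of all genes tested, and WT replicate 1 or 3 was the highest of the 6 libraries for 34 of the 40, against 32.9%. POLDIP2 KO replicate 1 was the lowest of its line for 29 of the 40, against 38.3%, and 20 of these 29 were mitosis genes. The lowest of the 6 values was in WT replicate 2 for 16 genes and in POLDIP2 KO replicate 1 for 17, which makes 33 of 40, against 35.2% of all genes for either of these libraries. None of the 40 had its lowest value in WT replicate 1 or 3, against 19.4% and 15.7%.

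As a median over the 22 mitosis genes, log2 expression lay 0.23 above, 0.26 below and 0.34 above the 6-library mean in WT replicates 1, 2 and 3, and 0.27 below, 0.05 above and 0.01 above it in the POLDIP2 KO libraries. Over the 18 replication genes the corresponding medians were 0.15 above, 0.18 below and 0.16 above in WT, and 0.11 below, 0.09 above and 0.16 below in POLDIP2 KO. The replication and mitosis genes parted in POLDIP2 KO replicate 3, where replication was low and mitosis was at the mean. The summed normalised count of the 22 mitosis genes ranged from 87510 to 135143 in WT and from 87747 to 110200 in POLDIP2 KO, and that of the 18 replication genes from 58458 to 79130 and from 59838 to 67080, so that for both groups the POLDIP2 KO libraries lay within the range of the WT libraries.

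**Figure D2:**
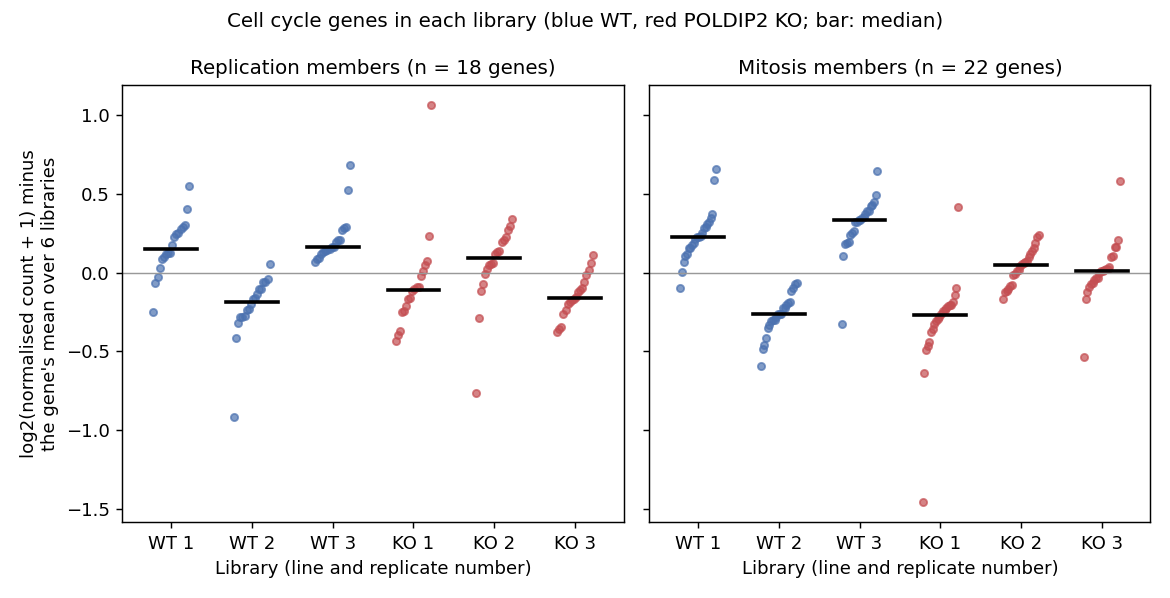
Each point is a gene, drawn as its log2(normalised count + 1) in a library minus its mean over the 6 libraries, for the 18 replication genes and the 22 mitosis genes; blue is WT, red is POLDIP2 KO and bars are medians. WT replicate 2 and POLDIP2 KO replicate 1 have medians below 0 in both panels, as POLDIP2 KO replicate 3 has for replication, and the median of the mitosis genes is highest in WT replicate 3, at 0.34.

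Same-numbered libraries of the 2 lines were taken as 3 pairs, a pairing that correlations over all genes bore out only in part. The direction of the difference turned with the pair. For replication and mitosis together, 38 of the 40 genes were lower in POLDIP2 KO in pair 1, against 48.7% of all genes, 36 of 40 were higher in pair 2, against 50.1%, and 39 of 40 were lower in pair 3, against 49.9%. The median log2 difference of the mitosis genes was -0.54, 0.32 and -0.33 in pairs 1, 2 and 3, that of the replication genes was -0.33, 0.29 and -0.36, and that of all genes tested was 0.0074, 0.00064 and 0. With 1 library per line in a pair these differences have no test. The order lower, higher, lower was shared by 34 of the 40 genes (14 of 18 for replication and 20 of 22 for mitosis), against 12.3% of all genes. That order was taken from these same co-expressed genes, so the count describes how widely it was shared and is no test of it. Pairs 1 and 3 alone, which leave out WT replicate 2, were both lower for 37 of the 40, against 28% of all genes. These pairs were set apart by the direction of the same genes, so this count restates the differences above.

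**Figure D3:**
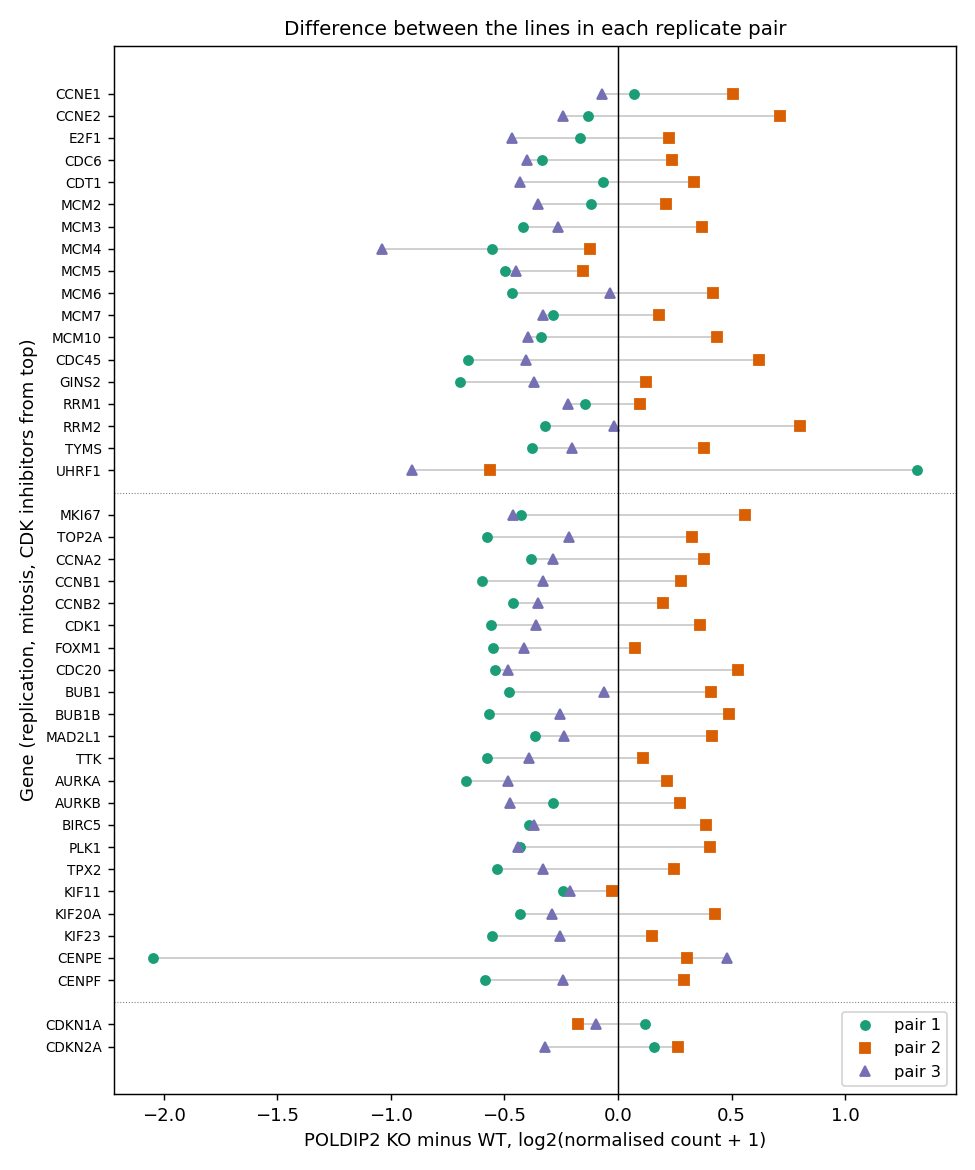
Difference between POLDIP2 KO and WT on the log2(normalised count + 1) scale for each of the 42 genes in pairs 1 (circles), 2 (squares) and 3 (triangles) of same-numbered libraries. The squares of pair 2 lie to the right of 0 for 36 of the 40 replication and mitosis genes, and the circles and triangles lie mostly to the left.

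Only a few genes had the same direction in each pair. MCM4, MCM5 and KIF11 were lower in POLDIP2 KO in all 3 pairs, which is 3 of the 42 against 15.7% of all genes, and 0 of the 42 were higher in all 3 pairs, against 17% of all genes. MCM4 was the only gene of the 42 whose POLDIP2 KO libraries all lay below its WT libraries, against 5.44% of all genes, and 0 of the 42 lay wholly above, against 5.46%.

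The helicase genes MCM2, MCM3, MCM4, MCM5, MCM6 and MCM7 encode the 6 subunits of the ring that unwinds DNA, which CDC6 and CDT1 load at origins. MCM4 (ENSG00000104738, chr8:47960185-47978160) had 9978, 9522 and 14719 normalised counts in WT, in the order of the replicates, and 6791, 8741 and 7173 in POLDIP2 KO. The lines did not overlap, although WT replicate 2 and POLDIP2 KO replicate 2 were close and WT replicate 3 was far above the rest. The mean was 11406 ± 2878 in WT and 7568 ± 1033 in POLDIP2 KO (SD, n = 3 libraries each), a ratio of 0.664, and the log2 fold change was -0.57 with a standard error of 0.192 and a 95% interval of -1.03 to -0.12 (limma, unadjusted p = 0.0204, Benjamini-Hochberg adjusted p = 0.574). Without WT replicate 3 the estimate for MCM4 was -0.37.

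MCM5 (ENSG00000100297, chr22:35400134-35425431) had 6552, 4506 and 6024 normalised counts in WT and 4646, 4056 and 4416 in POLDIP2 KO. WT replicate 2 lay within the range of POLDIP2 KO, and the other WT libraries lay above it. The log2 fold change was -0.37 (standard error 0.155, limma with Benjamini-Hochberg adjustment, adjusted p = 0.776) and in the block fit its adjusted p was 0.263, the smallest of the 42 in that fit. GINS2, a subunit of the GINS complex that joins the helicase at the fork, had the next smallest p value, with 1466, 1110 and 1437 normalised counts in WT and 905, 1207 and 1111 in POLDIP2 KO and a log2 fold change of -0.31 (limma, Benjamini-Hochberg adjusted p = 0.922). For GINS2, POLDIP2 KO replicate 1 lay below every WT library, and POLDIP2 KO replicate 3 was level with WT replicate 2.

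The other subunits of the ring differed by less. MCM2 had 4999, 4166 and 5352 normalised counts in WT and 4607, 4824 and 4190 in POLDIP2 KO, a log2 fold change of -0.09 with a 95% interval of -0.38 to 0.21. MCM3, MCM6 and MCM7 had log2 fold changes of -0.10, -0.03 and -0.15. The unequal estimates for subunits of one ring were not tested against each other. CDC6, the loading factor, had 3280, 2923 and 3368 normalised counts in WT and 2601, 3448 and 2554 in POLDIP2 KO, so that POLDIP2 KO replicate 2 was the highest library of all and the lines overlapped. CDT1, its partner in loading, had a log2 fold change of -0.05. MCM10 and CDC45, which act when the helicase is switched on, had log2 fold changes of -0.10 and -0.15. CDC45 was among the 3 genes with the widest range over the pairs, with 1281, 862 and 1205 normalised counts in WT and 809, 1326 and 911 in POLDIP2 KO. Its differences were -0.66, 0.62 and -0.40, so that a single pair would give opposite answers for this gene.

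The G1 to S regulators CCNE1 and CCNE2, which encode the cyclins E that activate CDK2, had estimates above 0. CCNE1 had 299, 258 and 333 normalised counts in WT and 315, 367 and 317 in POLDIP2 KO, which gave the highest of the few log2 fold changes above 0, 0.17 with a 95% interval of -0.23 to 0.57. For CCNE2 the values were 866, 573 and 802 in WT and 791, 939 and 678 in POLDIP2 KO, with a log2 fold change of 0.11. In both genes WT replicate 2 was the lowest library and POLDIP2 KO replicate 2 the highest, and the other libraries lay between them. E2F1, the transcription factor of the wave and the owner of one of the promoters shown above, had 1739, 1313 and 1596 normalised counts in WT and 1549, 1535 and 1155 in POLDIP2 KO. Its lines overlapped, with a log2 fold change of -0.14 (95% interval -0.53 to 0.26).

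Nucleotide supply was represented by RRM1 and RRM2, the large and the small subunit of ribonucleotide reductase, and TYMS, thymidylate synthase. RRM2, the subunit whose level follows S phase, had 5584, 2013 and 4180 normalised counts in WT and 4472, 3508 and 4124 in POLDIP2 KO. WT replicates 1 and 2 were the highest and the lowest of the 6 libraries and enclosed every POLDIP2 KO library. The mean was 3926 ± 1799 in WT and 4034 ± 488 in POLDIP2 KO (SD, n = 3 libraries each), and the log2 fold change of 0.15 had a 95% interval of -0.67 to 0.98 and was 0.04 in both edgeR and DESeq2 on recovered reads. RRM1 had a narrow range, with 5934, 5401 and 6697 normalised counts in WT and 5365, 5776 and 5754 in POLDIP2 KO, and its highest library was 1.25 times its lowest. This was the smallest such ratio of the 42, and the log2 fold change of RRM1 was -0.09 (95% interval -0.35 to 0.17). TYMS had a log2 fold change of -0.07.

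UHRF1, which brings maintenance DNA methylation to newly copied DNA, departed from the other replication genes. It had 1536, 1588 and 2634 normalised counts in WT and 3830, 1073 and 1405 in POLDIP2 KO. POLDIP2 KO replicate 1 was the highest library for this gene and the only POLDIP2 KO library above WT replicate 3, and the differences in pairs 1, 2 and 3 were 1.32, -0.57 and -0.91 on the log2 scale. The log2 fold change was -0.05 with a 95% interval of -1.16 to 1.06, and it turned to 0.13 in both tests on recovered reads. The UHRF1 window printed above holds E2F and NF-Y matches, as those of E2F1, MCM3, MCM6, MCM7, GINS2 and RRM1 do. The windows of the remaining replication genes lack E2F, NF-Y or both.

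Among the mitosis genes, 20 of 22 had the signs lower, higher, lower over the pairs, while the highest library was WT replicate 3 for 16 and WT replicate 1 for 6. MKI67, which encodes the proliferation marker Ki-67, had 16690, 10206 and 19172 normalised counts in WT and 12396, 15036 and 13931 in POLDIP2 KO. WT replicate 2 was the lowest and WT replicates 1 and 3 the highest of the 6 libraries, and the POLDIP2 KO libraries lay between them. The mean of MKI67 was 15356 ± 4629 in WT and 13788 ± 1326 in POLDIP2 KO (SD, n = 3 libraries each), with a log2 fold change of -0.11 (95% interval -0.66 to 0.44). TOP2A, the topoisomerase that untangles chromosomes, had 16131, 11289 and 15946 normalised counts in WT and 10801, 14166 and 13731 in POLDIP2 KO. The lowest libraries for TOP2A were POLDIP2 KO replicate 1 and WT replicate 2, and its log2 fold change was -0.16.

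CDK1 is the kinase that drives entry into mitosis, with CCNB1, CCNB2 and CCNA2 as its cyclins. CCNB1 had 6380, 4775 and 7714 normalised counts in WT and 4215, 5795 and 6128 in POLDIP2 KO, a log2 fold change of -0.22 (95% interval -0.72 to 0.29). CDK1 had 4457, 2916 and 4003 normalised counts in WT and 3028, 3750 and 3120 in POLDIP2 KO, a log2 fold change of -0.18 (95% interval -0.61 to 0.24). In both genes the lines overlapped, with 2 of the 3 POLDIP2 KO libraries of CCNB1, and each of those of CDK1, inside the WT range. CCNB2 and CCNA2 had log2 fold changes of -0.21 and -0.10, and FOXM1, the factor that drives this wave, had -0.30, the smallest p value of the mitosis group (limma, Benjamini-Hochberg adjusted p = 0.922).

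PLK1, the Polo kinase of centrosome and spindle assembly, had 3996, 3019 and 4832 normalised counts in WT and 2967, 3995 and 3561 in POLDIP2 KO. For PLK1, WT replicate 2 and POLDIP2 KO replicate 1 were nearly level at the bottom, and WT replicate 3 was highest, with a log2 fold change of -0.16 (95% interval -0.62 to 0.31). The Aurora kinases AURKA and AURKB had log2 fold changes of -0.31 and -0.16, TPX2, which activates AURKA on the spindle, had -0.21, and BIRC5 (survivin), the partner of AURKB on chromosomes, had -0.13. The spindle checkpoint genes BUB1, BUB1B, MAD2L1 and TTK had -0.04, -0.11, -0.06 and -0.29, and CDC20, the checkpoint's target that activates the anaphase-promoting complex, had -0.17. KIF20A and KIF23, motors of cytokinesis, had -0.10 and -0.22, and CENPF, a large kinetochore protein, had -0.18.

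**Figure D4:**
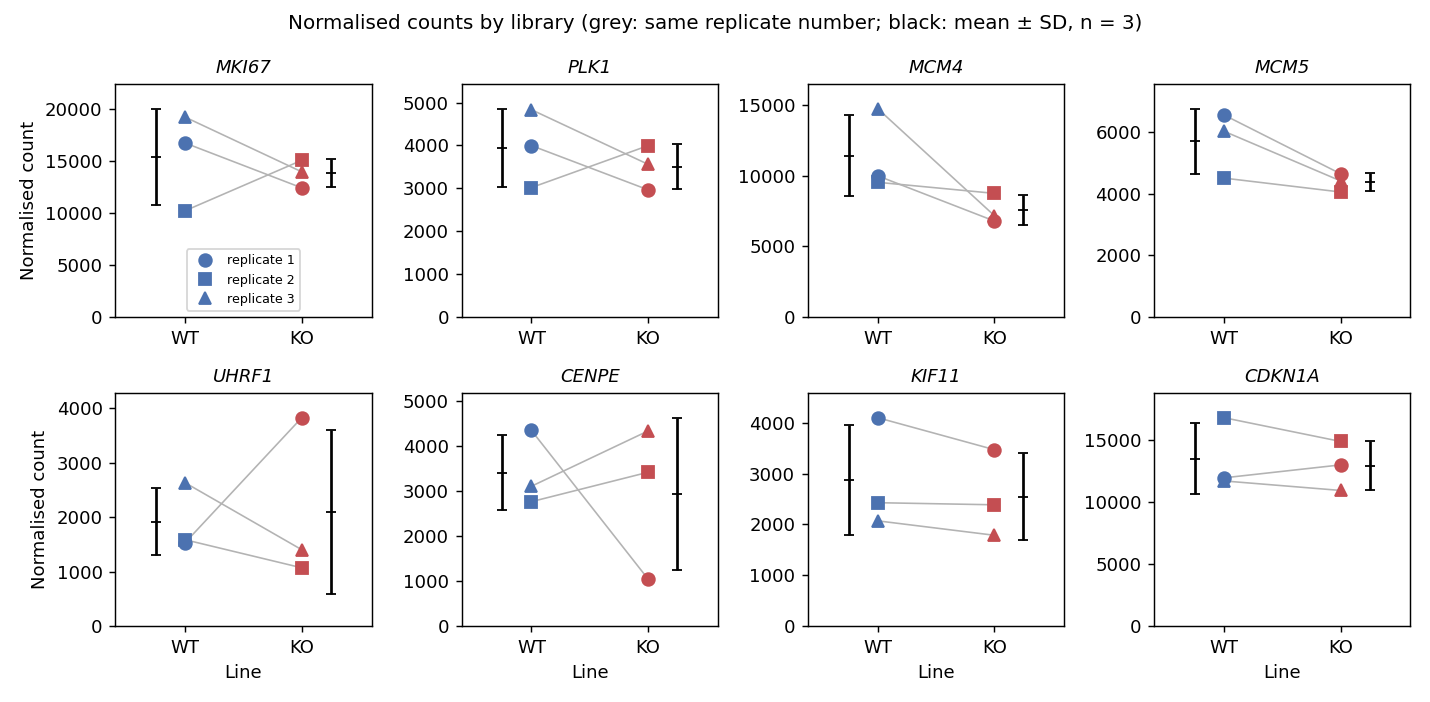
Normalised counts of 8 genes in each library, with blue for WT, red for POLDIP2 KO, grey lines joining libraries with the same replicate number and black bars for the mean ± SD (n = 3). MKI67 and PLK1 cross between pairs, MCM4 and MCM5 are lower in all 3 pairs, and POLDIP2 KO replicate 1 is the highest library of UHRF1 and the lowest of CENPE.

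CENPE and KIF11 did not follow the other mitosis genes. CENPE, the kinesin that carries chromosomes to the spindle equator, had 4356, 2771 and 3115 normalised counts in WT and 1052, 3426 and 4344 in POLDIP2 KO. POLDIP2 KO replicate 1 was lower than every other library, while POLDIP2 KO replicate 3 was nearly level with the highest WT library. The differences of CENPE in pairs 1, 2 and 3 were -2.05, 0.31 and 0.48, the widest range of the 42, and its estimated log2 fold change was -0.42, which had a 95% interval of -1.62 to 0.78 and was -0.21 in edgeR and in DESeq2 and 0.20 without POLDIP2 KO replicate 1. KIF11, the kinesin that pushes the spindle poles apart, had 4097, 2427 and 2070 normalised counts in WT and 3469, 2386 and 1787 in POLDIP2 KO. Both libraries numbered 1 were high for KIF11, and the differences of -0.24, -0.02 and -0.21 had the narrowest range of the 42, with WT and POLDIP2 KO replicate 2 nearly level. In POLDIP2 KO replicate 1 UHRF1 was at its highest and CENPE at its lowest, and both also departed in other pairs, UHRF1 being lower in pair 2 and CENPE the one mitosis gene higher in pair 3.

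Neither CDK inhibitor had the signs lower, higher, lower over the pairs. CDKN1A (p21), a p53 target that halts the cycle, had 11931, 16766 and 11682 normalised counts in WT and 12971, 14857 and 10918 in POLDIP2 KO. It was highest in WT replicate 2, the WT library in which 38 of the 40 replication and mitosis genes were lowest, and next in POLDIP2 KO replicate 2. The log2 fold change of CDKN1A was -0.05 with a 95% interval of -0.48 to 0.38. CDKN2A, the locus of p16INK4a and p14ARF, whose transcripts are merged in a gene count, had 287, 145 and 255 normalised counts in WT and 321, 175 and 204 in POLDIP2 KO. Its lowest library was WT replicate 2, as for 16 of the 40 replication and mitosis genes, and its log2 fold change was 0.03 with a 95% interval of -0.76 to 0.83.

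The group medians depended on which library was left out. Without WT replicate 2 the median log2 fold change was -0.36 for mitosis and -0.23 for replication, with 40 of the 42 under 0, against 49.7% of all genes. Without WT replicate 3 the medians were -0.05 and -0.01, with 26 of the 42 under 0, against 49.5%. Without WT replicate 1 they were -0.10 and -0.07, and without POLDIP2 KO replicates 1, 2 and 3 they were -0.05 and -0.05, -0.23 and -0.20, and -0.21 and -0.07. In each of these fits 0 of the 42 were called by limma, beside 10 of all genes tested without WT replicate 1 and without POLDIP2 KO replicate 1 and 0 in the other fits. WT replicate 2 was the lowest WT library for 38 of the 40 replication and mitosis genes, so leaving it out raises their WT mean by construction. An unadjusted p value under 0.05 (limma) was then reached by 11 of the 42, against 5.88% of all genes, compared with 1 of the 42 when all libraries were kept. Without WT replicates 1 and 3 it was reached by 1 and 1 of the 42, against 6.17% and 6.15% of all genes. Without POLDIP2 KO replicates 1, 2 and 3 it was reached by 0, 2 and 0, against 7.33%, 5.93% and 4.72%. The 11 without WT replicate 2 were MCM4, MCM5 and GINS2 of replication and MKI67, CCNA2, CCNB2, CDK1, FOXM1, BIRC5, KIF20A and KIF23 of mitosis. The smallest adjusted p value among the 42 in that fit was 0.405 (limma, Benjamini-Hochberg). Without the 2 libraries numbered 1 the log2 fold change was under 0 for 22 of the 42, against 49.6% of all genes, and the median of the mitosis genes was 0.0050.

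The order lower, higher, lower, held by 12.3% of all genes tested, was also counted in further genes of the same pathways. The further lists were chosen with earlier results known and were read in the same 6 libraries, so their counts are not independent of those above. Of all genes tested, limma, edgeR and DESeq2 called 0.17%, 0.116% and 1.69%. An unadjusted p value under 0.05 was reached by 6.48%, 6.52% and 7.08% in the same tests. A list of 39 other replication genes, all of them tested, had 0 called by limma, edgeR or DESeq2 and 0 at an unadjusted p value under 0.05 in each, with a median difference of -0.28, 0.38 and -0.28 in pairs 1, 2 and 3, and 34 of the 39 followed that order. A list of 56 other mitosis genes, 55 of which were found and tested, had 0 called by the same tests and 1 at an unadjusted p value under 0.05 in each, with differences of -0.49, 0.29 and -0.32, and 46 of the 55 followed that order. The genes with the smallest p value were DSCC1, a subunit of a clamp loader, in the first list, with a log2 fold change of 0.43 (limma, Benjamini-Hochberg adjusted p = 0.963), and ESPL1, the separase that cuts cohesin, in the second, with -0.36 (limma, Benjamini-Hochberg adjusted p = 0.747). In their promoters, 10 of 34 windows of the other replication genes (29.4%) held an E2F match, and 26 of 49 windows of the other mitosis genes (53.1%) held a CHR match. An E2F match was present in 8 of these 49 (16.3%), against 0 of 17 for the mitosis genes of the 42 and 7.06% for genes tested.

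In a list of G1 cyclins, kinases, inhibitors and pocket proteins, 19 of the 22 genes were tested, with 0 called by limma and by edgeR. The list also holds genes outside these classes, the transcription factors E2F3, E2F7, E2F8, TFDP1 and MYBL2 and the phosphatase CDC25A. DESeq2 called 1, which was also the 1 gene at an unadjusted p value under 0.05 in each of these tests. Of the 19, 10 followed the order lower, higher, lower, against 12.3% of all genes, and the medians of the 19 were -0.30, 0.17 and -0.15. The 10 were CDK2, CDKN2C, CDKN3 and RBL1 of the named classes, and E2F3, E2F7, E2F8, TFDP1, MYBL2 and CDC25A. The gene called by DESeq2 is CDK6, the D-cyclin kinase of G1. CDK6 had 13590, 13177 and 11207 normalised counts in WT and 8544, 8837 and 7579 in POLDIP2 KO. The lines did not overlap, all 3 pairs were lower by similar amounts (-0.67, -0.58 and -0.56), and the log2 fold change was -0.60 with a standard error of 0.119, which did not pass the threshold (limma, Benjamini-Hochberg adjusted p = 0.186). The adjusted p value of CDK6 was 0.214 in edgeR and 0.0596 with the replicate block, and DESeq2 on recovered reads, which called 1.69% of all genes, called it (adjusted p = 0.00102). Of 21 further p53 target genes, 19 were tested and 0 were called by limma, edgeR or DESeq2. At an unadjusted p value under 0.05 there were 0, 0 and 1 in these tests, against 6.48%, 6.52% and 7.08% of all genes. Of the 19, 2 had the order lower, higher, lower, which is near the 12.3% of all genes. Their median difference was 0.07, 0.05 and 0.12 in pairs 1, 2 and 3, and their median expression was above the 6-library mean by 0.22 in WT replicate 2 and by 0.27 in POLDIP2 KO replicate 2, and 0.21 below it in WT replicate 1. RRM2B, the p53-induced subunit of ribonucleotide reductase, had the smallest p value of this list, with a log2 fold change of 0.40 (limma, Benjamini-Hochberg adjusted p = 0.776).

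**Figure D5:**
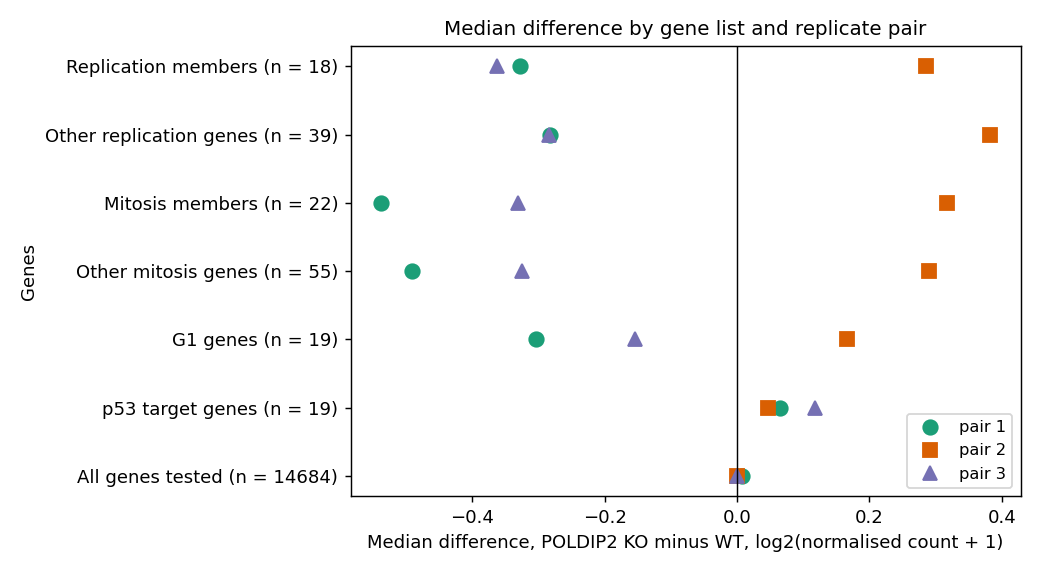
Median difference between POLDIP2 KO and WT on the log2(normalised count + 1) scale in each pair of same-numbered libraries, for the replication and mitosis genes, 4 further gene lists and all genes tested. The replication and mitosis lists lie below 0 in pairs 1 and 3 and above 0 in pair 2, the p53 targets lie between 0.05 and 0.12, and all genes lie close to 0.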

How the data were processed

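The analysis started from the normalised counts that the authors deposited for 37902 genes in 3 WT and 3 POLDIP2 KO libraries of ARPE-19. Per the labels and the methods, the authors quantified stranded mRNA libraries with Salmon 1.8, used tximport to obtain counts per gene (GRCh38) and scaled them by size factors of DESeq2 1.34.0. This deposited signal is therefore not a count. The annotation release is not given in the sources used here. All columns were used, so 0 were left out. P values measure the spread between these libraries, and nothing further is stated about how the replicates were separated.

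Reads were recovered on the assumption that the smallest non-zero value of a library is 1 read, and they were whole in 100% of cases within 0.001. In WT replicate 2 and POLDIP2 KO replicate 3 that value is close to 1, so that wholeness says little there. Symbols and exon lengths were taken from GENCODE release 44 (34152 genes named). Depth was 31532797 to 45795509 reads per library, and each of the 42 genes had at least 145 reads in every library.

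POLDIP2 KO was compared with WT by limma 3.58.1 (lmFit, eBayes with trend) on log2(normalised count + 1), run in R 4.3.3. Genes entered at a mean of 10 or more (14684 genes), and Benjamini-Hochberg adjustment was over all of them. The pseudocount understates changes of low genes. A call needed a fold change over 1.5 as well as an adjusted p value under 0.05. Alternatives were quantile normalisation, recentred libraries, a filter at a mean of 50, no filter, pseudocounts of 0.5 and 5, no trend, the replicate block, each library left out, the 2 libraries numbered 1 left out, and edgeR 4.0.16 and DESeq2 1.42.0 on recovered reads. The steps were tested on simulated data. Summaries used pandas 2.3.3 and numpy 2.4.6 in Python 3.11.15, and plots used matplotlib 3.10.9.

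To see whether replicate numbers pair the libraries, deviations from the line means were correlated over the 14684 genes. The correlations were 0.315, 0.137 and 0.129 for the same number, each over the limit of 0.1, and -0.259 to 0.147 for different numbers. The 0.147, for WT replicate 3 with POLDIP2 KO replicate 2, was also over the limit and above the 0.137 and 0.129. The limit therefore does not fully separate same from different numbers. The pairing was used for differences by pair and for the block. The labels do not say what a number stands for.

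The 42 genes and the further lists were chosen with earlier results of these data known. All 42 are named by group. Values in each library are given for a set list of core genes, for the 3 genes with the smallest p value, the 3 highest and 3 lowest log2 fold changes, and the 3 widest and 3 narrowest ranges over the pairs. In each further list the gene with the smallest p value is named with its log2 fold change, and values in each library are given for CDK6. KIF15, E2F2 and SESN2 of the further lists were not analysed here.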

Additional observations from a re-analysis of the deposited data

How the results depend on the processing

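The count of 0 among the 42 genes called was the same under each of 12 alternatives, which include leaving out the 2 libraries numbered 1. It was also the same in each of the 6 fits that leave out 1 library. Those fits gave 0 to 11 of the 42 an unadjusted p value under 0.05 and called 0 to 10 of all genes tested, against 25 with all libraries. The count of all genes called was 248 with DESeq2 on recovered reads, 16 at a mean of at least 50, 5 in edgeR with the replicate block and 5 without the 2 libraries numbered 1, and the causes were not tested. In limma the replicate block called 30 genes, 0 of them among the 42, so the pairing changed no call of these genes. The sign of the log2 fold change was kept by all 42 under the pseudocounts, filters, scalings, eBayes without trend and both block fits, and UHRF1 turned to 0.13 in edgeR and 0.13 in DESeq2 without the block. In these tests RRM2 (0.04 in both) and CENPE (-0.21 in both) moved toward 0 by more than 1.5 times, and KIF20A (-0.16 in both) moved away from it. CDKN2A was at 0.022 in edgeR.

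Leaving out 1 library at a time kept the sign of 21 of the 42 in all 6 fits. For the other 21 the log2 fold change ranged from -0.17 to 0.086 for MCM6, -0.24 to 0.021 for MCM10, -0.20 to 0.066 for CDT1, -0.25 to 0.0026 for E2F1, -0.067 to 0.23 for CCNE2, -0.27 to 0.47 for RRM2, -0.25 to 0.052 for TYMS and -0.60 to 0.32 for UHRF1. Of the mitosis genes it ranged from -0.38 to 0.075 for MKI67, -0.35 to 0.041 for CCNA2, -0.36 to 0.12 for CDC20, -0.26 to 0.078 for BUB1, -0.31 to 0.022 for BUB1B, -0.19 to 0.069 for MAD2L1, -0.32 to 0.011 for BIRC5, -0.34 to 0.0034 for PLK1, -0.41 to 0.13 for KIF11, -0.42 to 0.10 for KIF20A and -0.82 to 0.20 for CENPE, and of the inhibitors from -0.16 to 0.12 for CDKN1A and -0.26 to 0.23 for CDKN2A. Without WT replicate 3 the sign turned for 12 of the 42, the most of these fits.

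Without the 2 libraries numbered 1 the sign turned for 18 genes, to 0.052 for MCM3, 0.19 for MCM6, 0.020 for MCM10, 0.11 for CDC45, 0.086 for TYMS, 0.049 for MKI67, 0.056 for TOP2A, 0.048 for CCNA2, 0.0017 for CDK1, 0.022 for CDC20, 0.17 for BUB1, 0.12 for BUB1B, 0.089 for MAD2L1, 0.0083 for BIRC5, 0.068 for KIF20A, 0.39 for CENPE, 0.023 for CENPF and -0.029 for CDKN2A. With 3 libraries per line, the intervals of most of the 42 genes include a 1.5-fold change in some direction.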
